A study of Mus musculus with 12 samples.

Results

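The motile cilia genes described here were chosen by symbol. They are Foxj1 and every gene of the deposited count table whose symbol begins with Dnah, Dnai, Cfap, Rsph or Tekt followed by a number, after the table's Ensembl identifiers were matched to GENCODE M21 symbols. The rule found 60 of 46078 genes, namely Foxj1, 16 Dnah, 30 Cfap, 8 Rsph and 5 Tekt genes. No symbol in that annotation begins with Dnai, because the axonemal dynein intermediate chains carry other names there, and 5 of those genes are therefore given as a list of their own. All but 1 of the 60 are protein-coding, and the exception is Dnah2os, an RNA annotated opposite Dnah2. RNA-seq libraries were made from spinal cord tissue of mice of the host strain C57BL6/cJ, in 4 groups of 3 libraries. The groups were non-injured cord, cord after spinal cord injury (SCI), SCI followed by transplanted syngeneic mesenchymal stem cells (MSCs, stromal cells that can be grown in culture), and SCI followed by allogeneic MSCs. Syngeneic cells come from the host's own inbred strain and allogeneic cells from another. The labels used here do not state the time after injury, the donor strain, the cell dose, age, sex and the length of cord, and name no control procedure for injury alone. Nor do they say that the libraries came from separate animals, so p-values measure the spread between these libraries, which may be technical.

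In the spinal cord, multiciliated ependymal cells line the central canal, and their beating cilia move cerebrospinal fluid. A motile cilium is built around an axoneme of doublet microtubules and a central pair. Outer and inner dynein arms drive the beat, radial spokes and the central apparatus pattern it, and tektins and other inner proteins stiffen the doublets. FOXJ1 is the transcription factor that switches on this gene set, together with factors of the RFX family. The same genes are also used in sperm tails and airway epithelium, so the symbols define a structure and not a cell type.

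Promoter sequence was a property that the symbol rule did not use. RefSeq promoter windows of 300 bases (250 before to 50 after each start, GRCm38.p6) were matched by symbol for 47 of the 60 genes. The letters GTTGCC, the half-site that RFX factors are known to bind, were searched on both strands. The other strand reads GGCAAC, and a copy of 1 word cannot share letters with a copy of the other. At least 1 copy lay in 18 of the 47 genes (38.3%), against 14.1% of the 27025 genes in the table. The 18 include the near-identical genes Dnah7a, Dnah7b and Dnah7c, which are not independent of each other. At least 2 copies lay in 7 of the 47 (14.9%), against 1.17% of all genes. A facing pair of copies at most 3 bases apart was found in Cfap298, which is 2.13% of the 47, against 0.189% of all genes. Base composition was not matched between the genes and the table, and a match is a description of letters, not a shown binding site. The 100 bases before the start are printed below for 4 genes whose shown stretch overlaps no GENCODE exon, with each copy in capitals. Tekt1 and Tekt2 are shown because they are related tektins with 2 copies each, of which Tekt1 passed the test after injury and Tekt2 did not, and Cfap20 and Cfap97d2 as genes with a single copy.

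Tekt1, chr11:72361883-72361982, minus strand: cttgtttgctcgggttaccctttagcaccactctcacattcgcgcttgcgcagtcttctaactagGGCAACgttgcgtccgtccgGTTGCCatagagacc

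Tekt2, chr4:126325689-126325788, minus strand: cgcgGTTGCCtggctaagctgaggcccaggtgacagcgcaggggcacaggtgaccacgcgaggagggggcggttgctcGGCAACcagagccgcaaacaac

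Cfap20, chr8:95434870-95434969, minus strand: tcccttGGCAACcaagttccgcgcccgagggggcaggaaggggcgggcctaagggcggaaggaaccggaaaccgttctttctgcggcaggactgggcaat

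Cfap97d2, chr8:13705789-13705888, plus strand: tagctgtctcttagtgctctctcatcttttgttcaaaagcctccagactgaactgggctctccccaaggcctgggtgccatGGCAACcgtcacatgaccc

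In Tekt1 the 2 copies began 35 and 15 bases before the start, in opposite directions. RefSeq lists a second Tekt1 start whose window holds no copy, and a further Tekt2 start whose window holds none. The Tekt1 stretch shown lies inside the GENCODE gene (chr11:72344722-72362442), so it is upstream of the RefSeq start used here and not of the whole gene. Of the genes that passed the test after injury and had a promoter entry, Tekt1 was the 1 with a copy, and Cfap126, Cfap52, Rsph9, Cfap36 and Tekt5 had none. Foxj1 had no entry in the table.

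Libraries held 8705942 to 26151928 counts, the fewest in allogeneic replicate 2. Mitochondrial genes took 4.998% to 8.8% of counts in 11 libraries and 10.895% in non-injured replicate 3. Neuronal, oligodendrocyte and astrocyte markers were above the filter on low counts for 8 of 8 genes each, and ependymal genes outside the naming rule for 11 of 12. Of the 60 motile cilia genes, 51 passed that filter (at least about 10 counts in as many libraries as a group holds, by edgeR's filterByExpr). The other 9 were counted but too low to test. Their largest count in any library was 18 for Cfap53, 15 for Cfap58, 14 for Dnah17, 10 for Dnah2os, 9 for Rsph14, 8 for Dnah14, 5 for Tekt3 and 1 for each of Rsph6a and Cfap97d1. Dnah17, Rsph6a and Tekt3 are known mainly from sperm. Levels are given as CPM, a count set relative to its library total, here with totals scaled by the trimmed mean of M values (TMM).

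Set per kilobase of exon, so that genes of unequal length can be compared, the mean level over the 12 libraries was highest for Cfap36 at 32.6 CPM per kilobase. Foxj1 followed at 15.2, then Tekt5 at 10.4, Cfap298 at 8.82, Cfap97 at 6.75 and Cfap20 at 4.70. Among the outer arm heavy chains the range was 0.0273 (Dnah17) to 0.368 (Dnah9) CPM per kilobase, and among the inner arm heavy chains 0.0352 (Dnah3) to 0.882 (Dnah7b). Radial spoke genes above the filter lay between 1.20 (Rsph3b) and 3.15 (Rsph1). All these levels of arm heavy chains were thus below those of the 6 genes at the top.

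Libraries within a group were not alike for these genes, and this touches every comparison below. In non-injured replicate 3, 40 of the 51 genes had their lowest value of the group, where 36.97% of all 16527 tested genes did. The median gene lay 0.83 log2 units below the mean of the other 2 non-injured libraries. In allogeneic replicate 2, the shallowest library, 40 of 51 were also the lowest of their group (27.05% of all genes), with a median of -0.63. In SCI replicate 1 it was 36 of 51 (36.3% of all genes), with a median of -0.40. Of the 51, 37 were lowest in both non-injured replicate 3 and allogeneic replicate 2, and 8 in neither. Those 8 were Cfap20, Cfap36, Cfap97d2, Cfap100, Dnah7b, Dnah8, Rsph9 and Rsph10b. Foxj1 was lowest in allogeneic replicate 2, by a small margin (41.48 against 41.73 and 45.07 CPM), and not in non-injured replicate 3. Its coefficient of variation was 5.06% over the non-injured and 4.69% over the allogeneic libraries, where the median of the 51 genes was 34.9% and 35.2%. Foxj1 also has more counts than most of them, and the part of counting error in this gap was not tested.

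**Figure D1:**
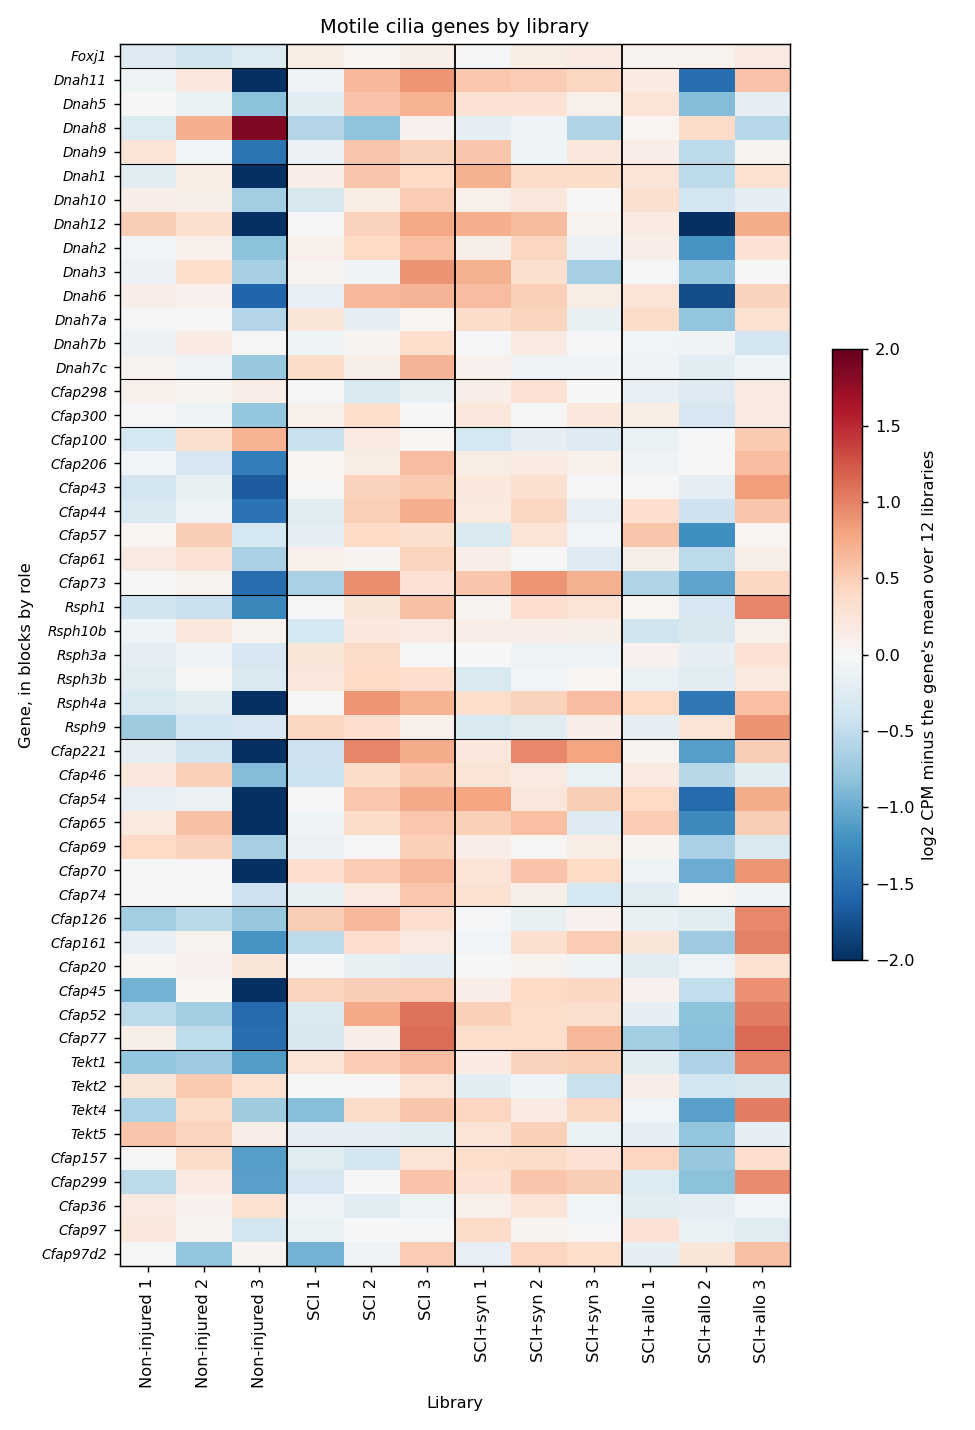
Each cell is the log2 CPM of 1 of the 51 motile cilia genes above the filter in 1 of the 12 libraries, minus that gene's mean over the 12 libraries, with genes in blocks by role and the colour scale cut at -2 and 2. Non-injured replicate 3 and SCI+allo replicate 2 are blue for most genes (lowest of their group in 40 of 51 each), with Foxj1, Dnah7b, Cfap36 and Cfap20 among those nearly even across libraries and Dnah8 red in non-injured replicate 3.

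The same libraries were compared for genes outside the naming rule. Of 35 other axonemal and motility genes (Hydin, Spag6l, Ccdc39 and the like), 24 were the lowest of their group in non-injured replicate 3 and 24 in allogeneic replicate 2. Of 15 genes of the multiciliated cell transcription and centriole programme, 6 were the lowest in non-injured replicate 3 and 2 in allogeneic replicate 2. Of 45 intraflagellar transport and primary cilium genes, 30 were the lowest in non-injured replicate 3, with a median of -0.29, and 20 in allogeneic replicate 2, with a median of -0.09. The same comparison was made within classes of transcript length. In non-injured replicate 3, the median of all tested genes was 0.21, 0.05 and -0.09 log2 units from the other 2 libraries for genes of up to 3000, between 3000 and 8000, and over 8000 bases of exon. The motile cilia genes of those lengths lay at -0.65, -0.62 and -0.87. In allogeneic replicate 2 all genes lay at 0.03, 0.02 and -0.03, and the motile cilia genes at -0.74, -0.54 and -0.78. Non-injured replicate 3 also had the highest summed CPM of the 8 oligodendrocyte markers, 81350 against 42530 and 33810 in the other 2. The part of cord sampled, RNA quality and cell makeup were not tested as sources of these differences.

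**Figure D2:**
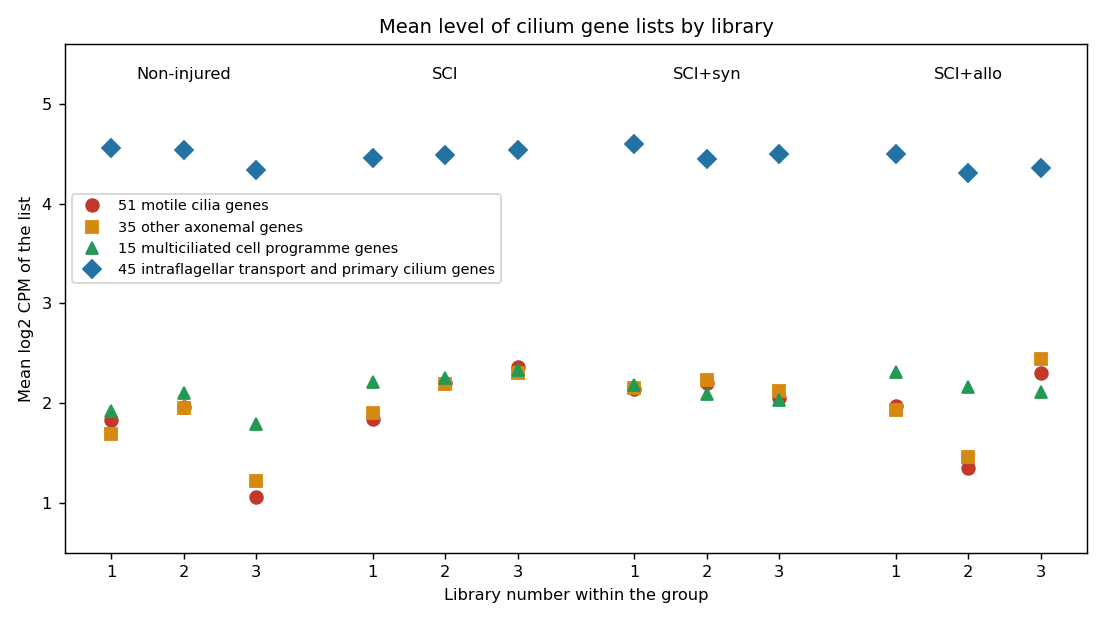
The vertical axis is the mean log2 CPM of 4 gene lists in each of the 12 libraries, grouped along the horizontal axis. The 51 motile cilia genes range from 1.05 in non-injured replicate 3 to 2.36 in SCI replicate 3, the 35 other axonemal genes move with them, and the multiciliated cell programme and the intraflagellar transport genes vary less between libraries.

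After SCI, the regulator Foxj1 and 4 structural genes rose against non-injured cord, and 2 genes fell. Those that rose were Foxj1, Cfap126, Tekt1, Cfap52 and Rsph9, which makes 5 of 51, where 16.6% of all tested genes rose. Those that fell were Cfap36 and Tekt5, 2 of 51, where 9.25% of all tested genes fell. The median log2 fold change of the 51 was 0.50, against 0.01 for all tested genes. Above 0 were 41 of the 51, with 10 below, and 50.79% of all tested genes. The 3 SCI libraries lay wholly above the 3 non-injured libraries for 17 of the 51 genes (26.3% of all tested genes) and wholly below for 4 (21.2%). Non-injured replicate 3 was the highest of its group for 50.05% of all tested genes and 13.73% of the 51, which affects this comparison of shares. Without that library, 17 of the 51 lay wholly above and 5 wholly below, against 5808 and 5125 of all 16527 tested genes. The shares of the set that rose or fell were below those of all tested genes, while its median was higher. Its fold changes were also less precise, with a median SE of 0.35 against 0.18 for all tested genes. Whether this bears on the shares was not tested. In tissue RNA, a change in the number of ciliated cells and a change in RNA per cell cannot be told apart.

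**Figure D3:**
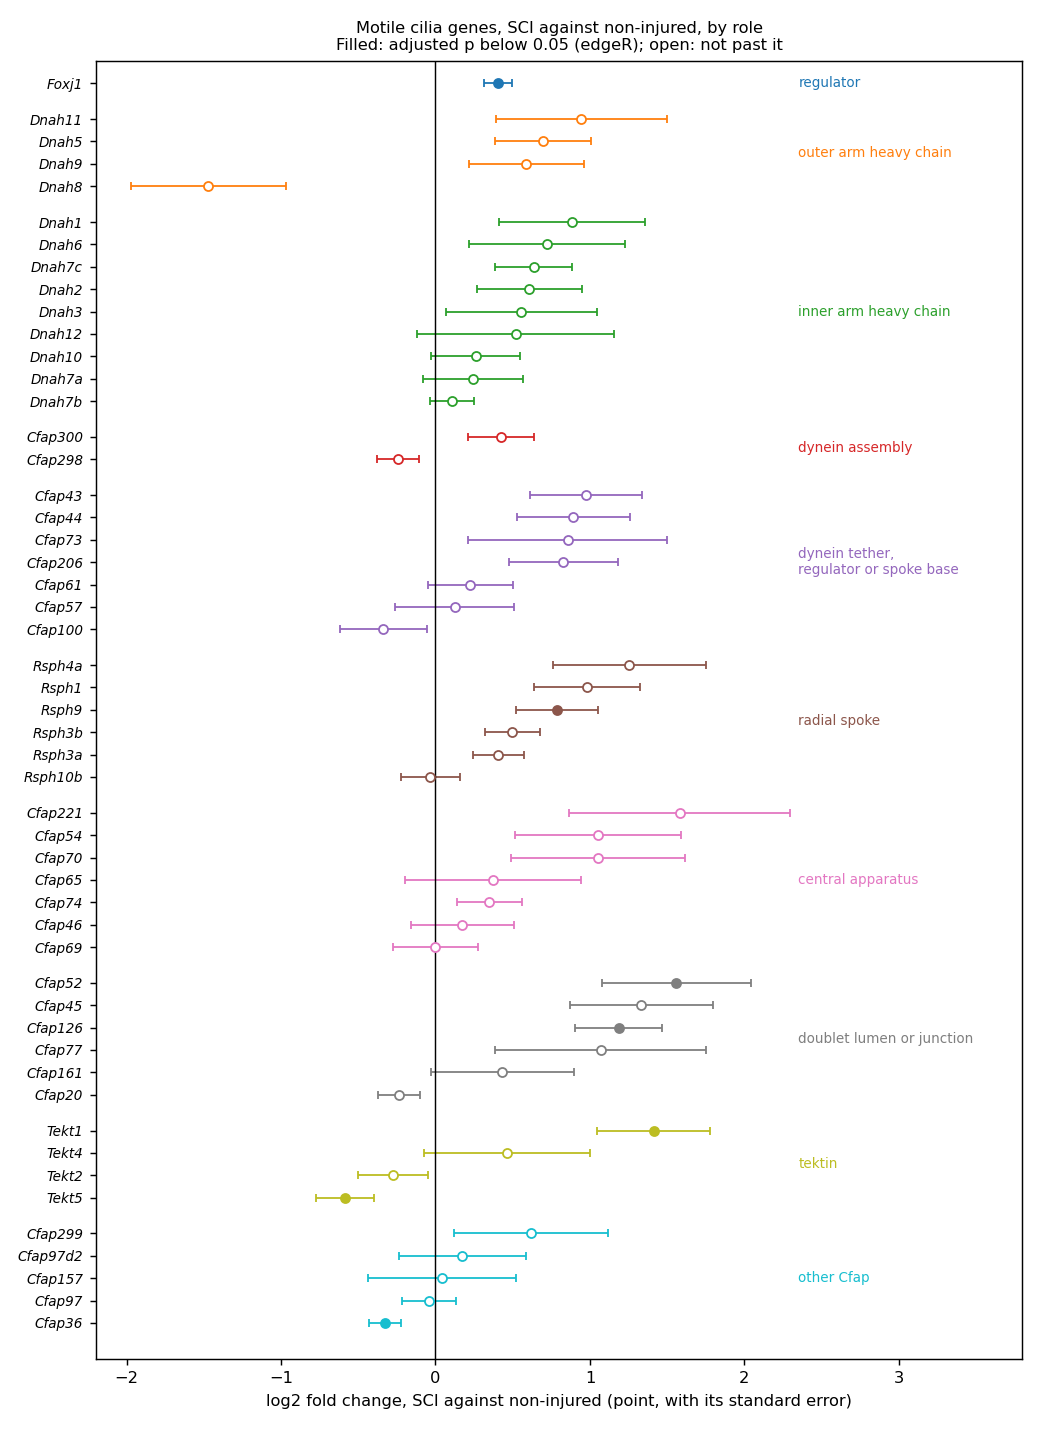
Points are the log2 fold change of SCI against non-injured for the 51 motile cilia genes, with their standard errors, ordered by role; filled points have an edgeR adjusted p below 0.05. Most points lie to the right of 0 (41 of 51), 7 are filled, and Dnah8, Tekt5 and Cfap36 lie to the left.

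Foxj1 (ENSMUSG00000034227, chr11:116330704-116335399, minus strand, GRCm38), the forkhead factor of the motile cilium programme, measured 33.3, 30.2 and 32.7 CPM in non-injured cord. It measured 43.8, 40.7 and 43.0 CPM after SCI. Every SCI library was above every non-injured one. The log2 fold change was 0.41 (SE 0.09), a 1.325-fold rise, with an edgeR adjusted p of 0.0073. It remained past the threshold in 13 of 13 alternative settings, with log2 fold changes of 0.35 to 0.47.

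Of 6 tested genes for proteins inside the doublet microtubules or at their junctions, 2 rose (16.6% of all tested genes) and none fell (9.25%). Their median log2 fold change was 1.13. Cfap126 (ENSMUSG00000026649, chr1:171113918-171126967, plus strand) encodes Flattop, a doublet protein also known for its part in basal body positioning. It measured 2.90, 3.25 and 2.77 CPM in non-injured cord and 6.73, 7.52 and 5.999 CPM after SCI. No library of 1 group reached the range of the other, the log2 fold change was 1.19 (SE 0.28), and the edgeR adjusted p was 0.0107. Like Foxj1, it remained past the threshold in 13 of 13 alternatives.

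Cfap52 (ENSMUSG00000020904, chr11:67924806-67965651, minus strand), another inner doublet protein, measured 1.54, 1.37 and 0.717 CPM in non-injured cord and 1.84, 3.95 and 4.98 CPM after SCI. The 2 ranges were separate, but SCI replicate 1 sat close to the non-injured libraries. Its change on the log2 scale was 1.56 (SE 0.48) with an edgeR adjusted p of 0.0348, and it lost the call in 6 of 13 alternatives (adjusted p up to 0.130), among them leaving out any 1 of the 3 non-injured libraries or SCI replicate 2 or 3. Its exons overlap those of 9130017K11Rik on the other strand, and the strand setting of the counting is not given, so reads of the 2 may be mixed.

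Of the other doublet genes tested, Cfap45 measured 0.966, 1.997 and 0.410 CPM in non-injured cord and 2.69, 2.80 and 2.83 CPM after SCI (log2 fold change 1.33, SE 0.46, adjusted p 0.0530). The groups did not overlap, yet it missed the threshold. Log2 fold changes were 0.43 (SE 0.46) for Cfap161 and 1.07 (SE 0.68) for Cfap77, with overlapping groups. Cfap20, an inner junction protein that is also found at basal bodies, measured 21.3, 22.1 and 24.7 CPM in non-injured cord and 20.9, 18.8 and 18.1 CPM after SCI (log2 fold change -0.24, SE 0.14, adjusted p 0.227).

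Tektins are filament proteins that run along the doublet. Of 4 tested, 1 rose (16.6% of all tested genes) and 1 fell (9.25%). Tekt1 (ENSMUSG00000020799, chr11:72344722-72362442, minus strand) measured 1.20, 1.25 and 0.922 CPM in non-injured cord and 2.57, 3.07 and 3.34 CPM after SCI. The groups did not overlap, the log2 fold change was 1.41 (SE 0.36) and the edgeR adjusted p was 0.0158. Without SCI replicate 2 or SCI replicate 3 the adjusted p was 0.0512 and 0.0549, and it held in the other 11 alternatives.

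Tekt5 (ENSMUSG00000039179, chr16:10357948-10395490, minus strand), a tektin known from the sperm tail, went the other way. It measured 26.6, 24.8 and 19.9 CPM in non-injured cord and 16.0, 16.0 and 15.5 CPM after SCI. Every SCI library was below every non-injured one, the log2 fold change was -0.58 (SE 0.19) and the edgeR adjusted p was 0.0395. It lost the call in 6 of 13 alternatives (adjusted p up to 0.130), including each in which an SCI library was left out. Tekt2 measured 1.62, 1.997 and 1.69 CPM in non-injured cord and 1.35, 1.37 and 1.64 CPM after SCI (log2 fold change -0.28, SE 0.23, adjusted p 0.413), and Tekt4 was at 0.46 (SE 0.54) on the same scale.

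Of the 6 radial spoke genes tested, 1 rose (16.6% of all tested genes) and none fell (9.25%). The log2 fold change was above 0 in 5, and the median of the 6 was 0.64. Rsph9 (ENSMUSG00000023966, chr17:46122035-46144216, minus strand), a spoke head protein, measured 2.66, 3.37 and 3.48 CPM in non-injured cord and 5.94, 5.65 and 4.76 CPM after SCI. The groups did not overlap, and the log2 fold change was 0.78 (SE 0.27) with an edgeR adjusted p of 0.0488. This call held in 3 of 13 alternatives, with adjusted p up to 0.153 in the rest, among them leaving out any 1 of the 6 libraries compared.

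The other spoke head genes did not pass. Rsph1 measured 3.01, 2.93 and 1.59 CPM in non-injured cord and 3.98, 4.77 and 6.12 CPM after SCI (log2 fold change 0.98, SE 0.34, adjusted p 0.0558). Rsph4a measured 3.59, 3.74 and 1.03 CPM in non-injured cord and 4.41, 8.28 and 7.25 CPM after SCI (log2 fold change 1.25, SE 0.50, adjusted p 0.0845). For Rsph1 and Rsph4a the groups did not overlap and non-injured replicate 3 was the lowest library. Rsph10b measured 5.18, 6.43 and 5.79 CPM in non-injured cord and 4.29, 6.42 and 6.23 CPM after SCI, with a log2 fold change of -0.03 (SE 0.19). Exons of Rsph10b overlap Pms2 and Gm42421 on the same strand and Gm17135 on the other, so its reads may be mixed with theirs. The stalk gene Rsph3a was at a log2 fold change of 0.41 (SE 0.17, adjusted p 0.0929), and its near-identical copy Rsph3b of 0.50 (SE 0.18, adjusted p 0.0623), so how reads were split between them is uncertain.

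None of the 13 dynein heavy chains of the arms passed the test in either direction by edgeR, and 3 of them had an unadjusted p below 0.05. Their fold changes were above 0 in 12 of 13, where 50.79% of all tested genes were. All 13 have over 8000 bases of exon, and 1745 of all 2711 tested genes of that length were above 0 (median 0.11). The near-identical Dnah7a, Dnah7b and Dnah7c are among the 13 and are not independent of each other. Among 4 outer arm chains the median log2 fold change was 0.64, and 0.33 without non-injured replicate 3. Dnah5 measured 5.21, 4.74 and 2.92 CPM in non-injured cord and 4.53, 7.79 and 8.55 CPM after SCI (log2 fold change 0.70, SE 0.31, adjusted p 0.122). Dnah9 measured 6.60, 5.31 and 1.95 CPM in non-injured cord and 5.08, 8.17 and 7.65 CPM after SCI (0.59, SE 0.37, adjusted p 0.276). In both genes non-injured replicate 3 was the lowest library, and SCI replicate 1 lay within the range of the non-injured libraries.

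Dnah11 showed the same order, with 2.86, 3.62 and 0.564 CPM in non-injured cord and 2.88, 4.88 and 5.72 CPM after SCI (log2 fold change 0.94, SE 0.56, adjusted p 0.240). Dnah8, the outer arm chain known from sperm, had its groups in the other order. It measured 1.39, 2.87 and 6.51 CPM in non-injured cord and 1.10, 0.933 and 1.81 CPM after SCI (log2 fold change -1.47, SE 0.50, adjusted p 0.0509). Non-injured replicate 3, the lowest library for most of these genes, was the highest for Dnah8. Exons of Dnah8, Dnah9 and Dnah11 overlap genes on the other strand.

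All 9 inner arm heavy chains had log2 fold changes above 0, from 0.11 (Dnah7b) to 0.88 (Dnah1), with a median of 0.56. All 9 stayed above 0 under both other scalings of the libraries. Those scalings moved the median of all tested genes by only -0.0255 and 0.0629, too little to change the sign. Without SCI replicate 3, 8 of 9 were above 0. Without non-injured replicate 3 all 9 stayed above 0 and the median was 0.28, and without SCI replicate 3 the median was 0.31. Dnah7b measured 16.2, 19.5 and 17.3 CPM in non-injured cord and 16.5, 18.3 and 22.3 CPM after SCI, with an adjusted p of 0.630. Dnah6 measured 5.79, 5.62 and 1.69 CPM in non-injured cord and 4.71, 8.34 and 8.55 CPM after SCI (log2 fold change 0.72, SE 0.51, adjusted p 0.327). Dnah7b was even across libraries, whereas Dnah6 depended on which library was compared.

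Dnah1 measured 3.90, 5.12 and 0.717 CPM in non-injured cord and 5.02, 6.80 and 6.06 CPM after SCI (log2 fold change 0.88, SE 0.47, adjusted p 0.197). Dnah2 measured 4.56, 5.06 and 2.61 CPM in non-injured cord and 5.08, 6.25 and 7.25 CPM after SCI (0.61, SE 0.34, adjusted p 0.217). Groups overlapped for Dnah1 and did not for Dnah2. The level of Dnah7b need not be its own, since Dnah7a, Dnah7b and Dnah7c are near-identical copies.

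Genes for tethers, regulators and bases of the arms and spokes had a median log2 fold change of 0.83 over 7 tested, of which none passed the test and 3 had an unadjusted p below 0.05. Cfap43 and Cfap44 encode partners in a tether of an inner arm dynein. Cfap43 measured 4.79, 5.62 and 1.90 CPM in non-injured cord and 6.37, 8.67 and 9.06 CPM after SCI (log2 fold change 0.97, SE 0.36, adjusted p 0.0686). Cfap44 measured 6.87, 7.99 and 2.97 CPM in non-injured cord and 7.16, 11.8 and 14.1 CPM after SCI (0.89, SE 0.37, adjusted p 0.0953). Both were lowest in non-injured replicate 3 and highest in SCI replicate 3 within these groups. The median of the 7 genes was 0.38 without non-injured replicate 3, with 4 above 0 where 6 were with it, 0.31 without SCI replicate 2, and 0.53 with only the 2 groups in the fit.

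Cfap100, which regulates inner arms, measured 3.28, 5.31 and 6.87 CPM in non-injured cord and 3.06, 4.72 and 4.36 CPM after SCI (log2 fold change -0.34, SE 0.28, adjusted p 0.417). Its exons overlap those of Zxdc on the other strand. The log2 fold change of Cfap61, a spoke base protein, was 0.23 (SE 0.27). Of the 2 genes needed to assemble dynein arms in the cytoplasm, Cfap298 was at a log2 fold change of -0.24 (SE 0.14, adjusted p 0.223) and Cfap300 of 0.42 (SE 0.22, adjusted p 0.173). Neither role showed a call in these libraries.

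For the central apparatus, none of 7 genes passed the test, 1 had an unadjusted p below 0.05, and the median log2 fold change was 0.37. Cfap69 measured 20.9, 22.0 and 9.94 CPM in non-injured cord and 14.6, 16.2 and 22.0 CPM after SCI, with a log2 fold change of 0.00 (SE 0.27). Cfap74 measured 10.5, 10.7 and 7.94 CPM in non-injured cord and 9.55, 12.1 and 15.5 CPM after SCI (0.35, SE 0.21, adjusted p 0.250). Cfap65 was at 0.37 (SE 0.57) and Cfap46 at 0.17 (SE 0.33) on the log2 scale. Cfap221, at 1.58 (SE 0.72, adjusted p 0.128), had the highest fold change of the 51 genes, from at most 20 counts in a library. Without non-injured replicate 3, 4 of the 7 genes were above 0, where 6 of 7 were with it, and the median was 0.20. The median was 0.23 without SCI replicate 3, 0.83 without non-injured replicate 2 and 0.75 by limma-voom.

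Cfap36 (ENSMUSG00000020462, chr11:29221532-29247409, minus strand) was the most abundant gene of the set, and it is not placed in an axonemal structure here. It measured 100.5, 94.6 and 109.5 CPM in non-injured cord and 83.9, 75.8 and 82.8 CPM after SCI. All SCI libraries were lower than all non-injured ones, the log2 fold change was -0.33 (SE 0.10) and the edgeR adjusted p was 0.0380. The call was lost in 7 of 13 alternatives (adjusted p up to 0.148), among them scaling by library totals alone and leaving out any SCI library. Of the remaining Cfap genes outside these roles, Cfap97 measured 39.7, 35.7 and 26.6 CPM in non-injured cord and 31.6, 34.1 and 33.4 CPM after SCI (log2 fold change -0.04, SE 0.17). Log2 fold changes were 0.17 (SE 0.41) for Cfap97d2, 0.62 (SE 0.50) for Cfap299 and 0.04 (SE 0.48) for Cfap157.

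**Figure D4:**
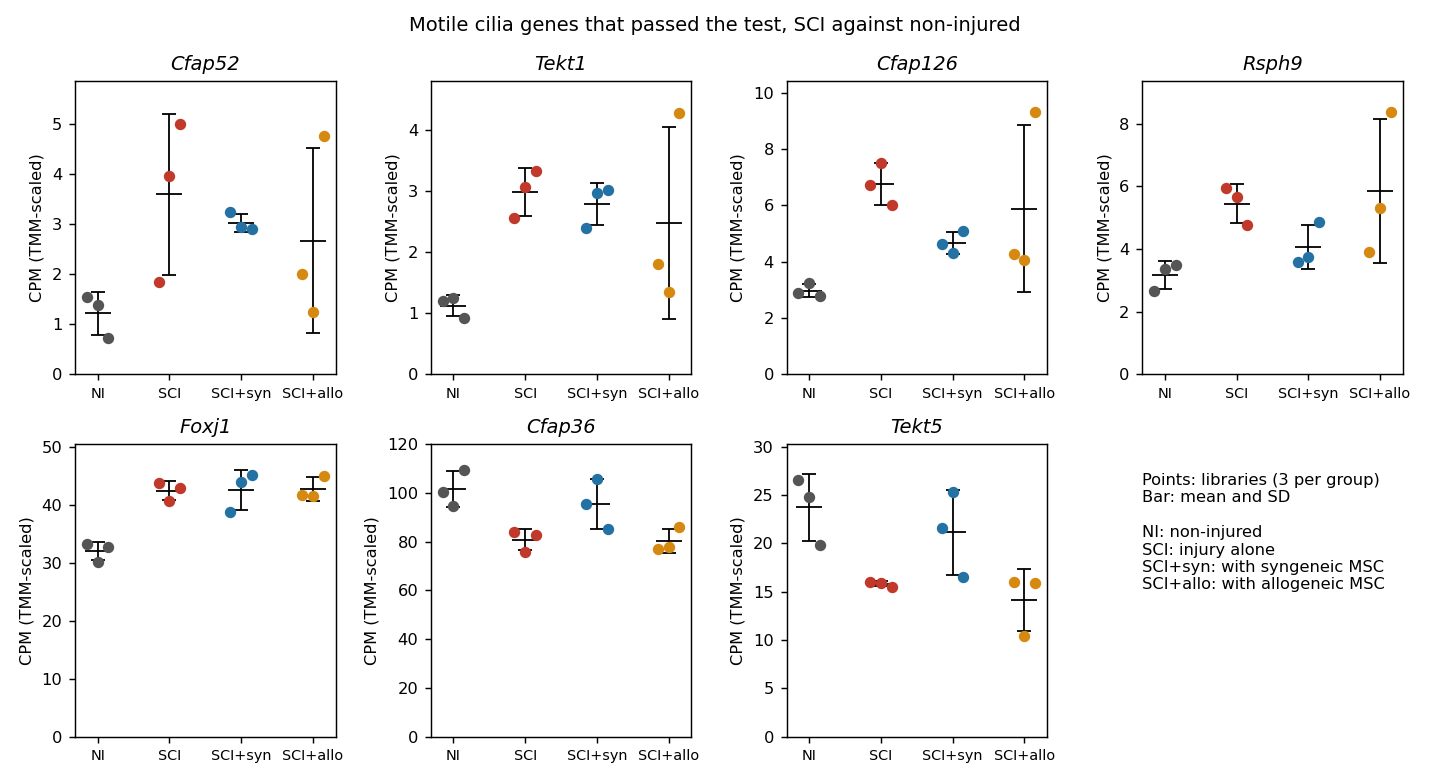
Points are CPM in each library for the 7 motile cilia genes that passed the test between SCI and non-injured cord, with 3 libraries in each of the 4 groups on the horizontal axis and a bar for mean and SD. SCI libraries lie wholly above non-injured ones for Cfap52, Tekt1, Cfap126, Rsph9 and Foxj1 and wholly below for Cfap36 and Tekt5, and the SCI+allo libraries spread widely for Cfap52, Tekt1, Cfap126 and Rsph9.

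Of the 6 libraries compared, leaving out non-injured replicate 3 gave the lowest median. Without non-injured replicate 3, Foxj1, Cfap126 and Tekt1 rose and Tekt5 fell, the median of the 51 genes was 0.30, and 36 of 51 were above 0. Without SCI replicate 2 or SCI replicate 3, Foxj1 and Cfap126 were the 2 genes called. Without non-injured replicate 1, 3 genes rose, and the count of genes that fell was 1 without any 1 non-injured library and 0 without any 1 SCI library. With both non-injured replicate 3 and allogeneic replicate 2 left out, a setting chosen after seeing the data, Rsph4a joined Foxj1, Cfap126 and Tekt1, and the median was 0.31.

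Genes that work with or beside these were counted in the same way. In the multiciliated cell transcription and centriole list, 3 of 15 tested genes rose after SCI (16.6% of all tested genes) and none fell (9.25%). The median log2 fold change was 0.34. Rfx4 rose from 27.4 ± 3.96 to 52.4 ± 3.70 CPM (SD, n = 3 libraries; log2 fold change 0.93, edgeR adjusted p 0.000332). Rfx2 rose from 2.61 ± 0.32 to 5.97 ± 0.63 CPM (1.20, adjusted p 0.00176). Both encode RFX factors, and the third riser was Rfx3 (0.50, adjusted p 0.03998). Rfx4 is also expressed by astrocytes. The early inducers Mcidas and Foxn4 and the centriole genes Deup1, Ccdc78 and Cdc20b were below the filter, with 32, 6, 75, 36 and 15 counts over all 12 libraries.

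Of the 35 other axonemal genes, 7 rose and 1 fell after SCI (median 0.42), against 16.6% and 9.25% of all tested genes. Iqcg, a nexin-dynein regulatory complex protein, rose from 3.50 ± 0.10 to 9.58 ± 0.75 CPM (log2 fold change 1.45, edgeR adjusted p 0.000311). Drc7, of the same complex, rose from 1.15 ± 0.64 to 4.55 ± 0.92 CPM (1.97, adjusted p 0.00482). The remaining risers were Dnali1, Iqub, Nme7, Mns1 and Stk36. None of the 5 intermediate chain genes passed (edgeR; 1 at an unadjusted p below 0.05, median 0.37). Of these, Wdr78 measured 8.71 ± 3.36 CPM in non-injured cord and 13.04 ± 1.77 CPM after SCI, and Dnaic1 5.24 ± 0.73 and 5.11 ± 0.76 CPM.

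Among 12 dynein preassembly factors, 2 rose (16.6% of all tested genes) and 1 fell (9.25%). Dnaaf3 rose (log2 fold change 0.97, adjusted p 0.00964) as did Zmynd10, and Spag1 fell (-0.55, adjusted p 0.0255). Of 45 intraflagellar transport and primary cilium genes, which non-motile cilia use too, 2 rose and 1 fell, against the same 16.6% and 9.25%. Their median was -0.02. Dync2li1 rose (0.48, adjusted p 0.0260) and Ift20 fell (-0.43, adjusted p 0.0271). Of 15 genes of cytoplasmic dynein and dynactin, the motor of axonal and general transport, none rose and 6 fell, against the same shares. By edgeR, 10 had an unadjusted p below 0.05 in either direction, and the median was -0.31. Dctn3 fell by 0.73 and Dynll2 by 0.60 on the log2 scale.

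Markers of the cells that could carry or dilute these RNAs moved as well. Of 11 other ependymal genes, listed apart from the cilium genes above, 5 rose (16.6% of all tested genes) and 1 fell (9.25%). Vim, Rarres2, Nes, Sox9 and Nnat rose, and Cd24a fell. The other genes of that list, Mia, Prom1, Ccdc153, Tmem212, Fam216b and Enpp2, gave no call. The summed level of the 11 was 1049 to 1638 CPM in non-injured cord and 1767 to 2014 CPM after SCI. Vim rose by 3.54 and Rarres2 by 1.79 on the log2 scale. Vim and Sox9 are also made by astrocytes, so the summed level is not a measure of ependyma alone. Of 6 choroid plexus genes tested, 3 rose (16.6% of all tested genes), such as Slc4a5 and Folr1 (log2 fold changes 1.25 and 2.51). The sums of the 6 were 3.74 to 10.2 CPM in non-injured cord and 13.1 to 17.3 CPM after SCI. The defining choroid plexus genes Otx2 and Ttr had 0 and 18 counts over all 12 libraries. Of 12 genes of the sperm head and acrosome, 2 were above the filter and neither passed the test (edgeR; 0 at an unadjusted p below 0.05). Zpbp had a log2 fold change of -0.18 and Acr of -0.33. The protamine genes Prm1 and Prm2 had 0 and 1 counts.

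Astrocyte markers rose for 6 of 8 genes, such as Gfap and Aqp4 (log2 fold changes 2.04 and 1.32), where 16.6% of all tested genes rose. The sum of the 8 went from 4802 to 6235 CPM to 11880 to 13440 CPM. Microglial and macrophage markers rose for 8 of 8, such as Csf1r and Itgam (2.28 and 2.74), from 170.7 to 233.5 CPM to 958.1 to 1145 CPM. Fibroblast and meningeal markers rose for 8 of 8, such as Pdgfra and Lum (0.69 and 3.75), from 128.6 to 251.5 CPM to 1108 to 1649 CPM. Neuronal markers fell for 5 of 8 (Nefl -0.91, Nefm -0.98), where 9.25% of all tested genes fell. The sum of these 8 went from 11410 to 13040 CPM to 6633 to 8086 CPM. Oligodendrocyte markers fell for 5 of 8 (Mal -1.11, Mog -1.11), from 33810 to 81350 CPM to 24850 to 33820 CPM. CPM is a share of all RNA, and the part of these shifts in the values of the motile cilia genes was not tested.

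Syngeneic MSCs were compared with injury alone to ask whether the transplant changed the injured cord. None of the 51 motile cilia genes rose (0.00605% of all tested genes did) and none fell (0.0303%) by edgeR, and DESeq2 and limma-voom also called none. The counts for all genes, 1 higher and 5 lower, were 62 and 804 of 16876 without syngeneic replicate 3, and 0 and 0 without any other 1 library of the comparison. None of the 51 was called in any of these settings. At an unadjusted p below 0.05 there were 3 genes, against 13.5% of all tested genes. These were Rsph3b, Cfap36 and Tekt5, with edgeR adjusted p of 0.338, 0.359 and 0.365. The median SE was 0.34 in the set and 0.18 over all tested genes. The median log2 fold change was -0.05, with 21 genes above 0 and 30 below, where 50.63% of all tested genes were above 0. Without SCI replicate 3 it was 0.06 with 30 above 0, and without SCI replicate 1 it was -0.20 with 13 above 0.

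Foxj1 measured 38.7, 44.0 and 45.1 CPM with syngeneic MSCs, across the range after injury alone. The log2 fold change was 0.00, with a 95% interval of -0.19 to 0.20. Cfap126 measured 4.63, 4.29 and 5.07 CPM, below every SCI library and above every non-injured one (log2 fold change against SCI -0.54, interval -1.14 to 0.06). Syngeneic libraries lay wholly below SCI for 5 of the 51 genes (1908 of all 16527 tested) and wholly above non-injured cord for 21 (2263). The last 2 counts are not on a like footing. Non-injured replicate 3 was the highest non-injured library for 13.73% of the 51 and 50.05% of all tested genes. How many would lie wholly above without that library was not tested here. Tekt1 measured 2.40, 2.98 and 3.02 CPM and overlapped SCI (-0.10, interval -0.85 to 0.65). Cfap52 measured 3.23, 2.94 and 2.89 CPM, within the SCI range (-0.25, interval -1.24 to 0.74).

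Rsph9 measured 3.58, 3.75 and 4.88 CPM (-0.43, interval -0.9985 to 0.15). The 2 genes that fell after injury lay higher with syngeneic MSCs. All genes named here were picked through the same SCI libraries, so a shift back toward non-injured cord can follow from that choice. Cfap36 measured 95.3, 105.7 and 85.1 CPM, above every SCI library, of which the highest was 83.9 CPM (0.24, interval 0.01 to 0.47). Tekt5 measured 21.6, 25.4 and 16.6 CPM, also above every SCI library, of which the highest was 16.0 CPM (0.42, interval 0.01 to 0.83). Neither passed the test once adjusted. Syngeneic libraries lay wholly above SCI for 4 of the 51 genes, where 2011 of all 16527 tested genes did.

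Allogeneic MSCs against injury alone also gave no call by edgeR, DESeq2 or limma-voom. None of the 51 genes rose (0.169% of all tested genes) or fell (0.0182%), and 0 had an unadjusted p below 0.05 (2.94% of all tested genes). Without any 1 SCI library, 0 of all tested genes were called in either direction. The median SE was 0.35 in the set and 0.18 over all tested genes. The median log2 fold change was -0.19, with 14 genes above 0 and 37 below, where 50.4% of all tested genes were above 0. Of all tested genes with over 8000 bases of exon, 533 of 2711 were above 0 (median -0.11). Of the motile cilia genes of that length, 2 of 18 were (median -0.33). At up to 3000 bases it was 3594 of 5230 and 7 of 18, and between 3000 and 8000 bases 4183 of 8520 and 5 of 15. The part of length in this tilt was not tested. The balance of the 51 differed with the allogeneic library left out. Without replicate 2 the median was 0.01 and 27 of 51 were above 0, and without allogeneic replicate 3 it was -0.39 with 4 above 0.

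Foxj1 measured 41.7, 41.5 and 45.1 CPM with allogeneic MSCs, overlapping injury alone (log2 fold change 0.01, interval -0.18 to 0.21). The structural genes were split between libraries. Cfap126 measured 4.28, 4.06 and 9.31 CPM (-0.17, interval -0.77 to 0.43). Tekt1 measured 1.81, 1.35 and 4.29 CPM (-0.21, interval -0.97 to 0.55). Cfap52 measured 2.01, 1.24 and 4.75 CPM (-0.37, interval -1.37 to 0.64).

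In all 3, allogeneic replicate 3 was the highest library and replicate 2 the lowest. Rsph9 measured 3.89, 5.30 and 8.39 CPM (0.12, interval -0.45 to 0.69). Cfap36 measured 76.9, 77.9 and 85.9 CPM (-0.01, interval -0.24 to 0.22), and Tekt5 16.0, 10.48 and 15.95 CPM (-0.15, interval -0.57 to 0.27). For all 7 genes the interval covers 0.

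Directly compared, allogeneic and syngeneic MSCs gave no call among the 51 genes by edgeR, DESeq2 or limma-voom. None was higher with allogeneic cells (0.593% of all tested genes) and none lower (0.0182%). Without syngeneic replicate 3, 1135 of all tested genes were called higher and 43 lower, from 98 and 3, and still none of the 51. At an unadjusted p below 0.05 there were 2 genes, Tekt5 and Cfap36, against 14.4% of all tested genes. The median SE was 0.35 in the set and 0.18 over all tested genes. Tekt5 was lower in every allogeneic library (log2 fold change -0.57, interval -0.99 to -0.16, edgeR adjusted p 0.247) and Cfap36 overlapped (-0.25, interval -0.48 to -0.02, adjusted p 0.307). Allogeneic libraries lay wholly below syngeneic ones for 5 of the 51 genes, where 858 of all 16527 tested genes did. Foxj1 differed by 0.01 (interval -0.19 to 0.20). The median over the 51 genes was -0.16, and without allogeneic replicate 2 it was 0.05.

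Each transplant group was also set against the same non-injured libraries, which these comparisons share with the first one. With syngeneic MSCs, Foxj1 was the 1 of 51 genes called higher (4.92% of all tested genes), with a log2 fold change of 0.41 and an edgeR adjusted p of 0.0203, and none was lower (0.424%). The call was lost without any 1 non-injured library or syngeneic replicate 3 (adjusted p 0.0654 to 0.165), and also with no filter on low counts or with only the 2 groups in the fit. Tekt1, at 1.31, had an adjusted p of 0.0601. With allogeneic MSCs, 5 of 51 were higher (16.7% of all tested genes), namely Foxj1, Cfap126, Tekt1, Rsph9 and Rsph1, and 2 were lower (8.17%), Cfap36 and Tekt5.

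The allogeneic fold changes on the log2 scale were 0.42 for Foxj1, 1.02 for Cfap126, 1.20 for Tekt1, 0.90 for Rsph9, 1.05 for Rsph1, -0.34 for Cfap36 and -0.74 for Tekt5. Without allogeneic replicate 3, Foxj1 was the 1 gene called higher, and Cfap126 was then at 0.50 and Tekt1 at 0.52. Without non-injured replicates 1, 2 and 3 in turn, 1, 3 and 2 genes were called higher. The genes called lower numbered 1 without non-injured replicate 1 or allogeneic replicate 1, and 0 without allogeneic replicate 2. Whether the syngeneic and allogeneic groups differ in their distance from non-injured cord is the direct comparison above, which called no gene. The median log2 fold change of the 51 genes was 0.46 with syngeneic and 0.26 with allogeneic MSCs, and without non-injured replicate 3 it was 0.17 and -0.02.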

How the data were processed

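Gene counts were deposited by the authors as a table of raw counts for 12 libraries, with stranded poly(A) libraries made from spinal cord RNA, per the labels' protocols. STAR 2.5.1, featureCounts 1.5.1 and build GRCm38 are named in the submitters' processing notes, and no label or header gives the strand setting of the counting. The table gave 46078 genes, of which 45143 had a symbol. Genes were filtered with filterByExpr (minimum count 10, minimum total 15), which left 16527. They were scaled by TMM and tested with edgeR 4.0.16 (R 4.3.3) in 1 robust quasi-likelihood fit of 4 group means over all 12 libraries, leaving 8 residual degrees of freedom. Benjamini-Hochberg adjustment ran over all tested genes, with 0.05 as the threshold. Log2 CPM used a prior count of 2. Intervals are 95% intervals of a fold change from the fit.

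Alternatives were DESeq2 1.42.0, limma-voom (limma 3.58.1), DESeq2's size factors, library totals alone, no filter, the 2 groups compared alone, and leaving out each library. Leaving out non-injured replicate 3 and allogeneic replicate 2 together was added after seeing the data. The fit was tested on simulated data. Exons of 21 of the 60 genes overlap a gene on the other strand and of 3 a gene on the same strand. Only some of these overlaps are named above. Named genes were, by rule, those called in a comparison, plus up to 4 uncalled genes per role with the highest mean CPM, and 2 genes per related list. Dnah3, Dnah7a, Dnah7c, Rsph3b, Cfap221 and any further genes of the related lists were named beyond it, after their values were seen. The genes and lists were chosen with earlier results of these data known, and the intermediate chain list was added after the table was read. A result for 1 gene of the other axonemal list is not reported here.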

Additional observations from a re-analysis of the deposited data

How the results depend on the processing

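Counts of motile cilia genes called depended on the setting. For SCI against non-injured cord, DESeq2 called 9 higher (2840 of all 16524 genes) and library totals alone called 0 lower (1090 of 16527). Leaving out 1 library called 2 to 4 higher and 0 to 1 lower. For syngeneic MSCs against non-injured cord, no filter and only 2 groups each called 0 higher, DESeq2 called 2, and leaving out 1 library 0 to 1. For allogeneic MSCs against non-injured cord, only 2 groups called 1 higher and 1 lower, library totals 1 lower, and leaving out 1 library 1 to 5 higher and 0 to 2 lower. With non-injured replicate 3 and allogeneic replicate 2 both left out, 1 was lower for SCI, 0 higher for syngeneic, and 3 higher and 1 lower for allogeneic MSCs. The causes were not tested. The 7 genes called after SCI kept their direction in all 13 settings of that comparison.

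Uncalled fold changes near 0 among the injured groups changed sign. For syngeneic MSCs against SCI, leaving out 1 library gave Foxj1 -0.068 to 0.07 (-0.025 with library totals), Cfap52 -0.56 to 0.03 and Tekt1 -0.20 to 0.0008. For allogeneic MSCs against SCI, leaving out 1 library gave Cfap126 -0.69 to 0.028, Cfap36 -0.058 to 0.021, Foxj1 -0.024 to 0.034, Rsph9 -0.25 to 0.35, Tekt1 -0.89 to 0.045 and Tekt5 -0.24 to 0.013. With both libraries left out, Cfap126 was 0.025, Cfap36 0.0098, Tekt1 0.050 and Tekt5 0.012. For allogeneic against syngeneic MSCs, leaving out 1 library gave Cfap126 -0.13 to 0.56, Cfap52 -0.83 to 0.18, Foxj1 -0.058 to 0.090 (-0.012 with no filter) and Tekt1 -0.77 to 0.15. With both left out, Cfap52 was 0.18 and Tekt1 0.15.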
